A study of Drosophila melanogaster with 2 samples.

Results

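The 9 genes Cp190, Chro, BEAF-32, mod(mdg4), pzg, Ibf1, Ibf2, row and insv encode insulator cofactors, insulator DNA-binding proteins and proteins of the interbands. They were chosen by name, with earlier results of these data known. All 9 were found by symbol among the 13968 protein-coding genes of the Ensembl annotation used here. For each gene, every deposited peak with its summit in the gene body or within 2 kb on either side was collected. The data are chromatin immunoprecipitation and sequencing (ChIP-seq) libraries from whole Drosophila melanogaster embryos of 0 to 24 h, which carry the zinc finger protein CG9215 fused to eGFP and were precipitated with an antibody against GFP. There is 1 group of 2 biological replicates, with no other genotype, treatment or time. The sources used here do not name the promoter that drives the fusion, whole embryos mix all tissues and stages of that day, and the control library was not analysed here. Results are therefore positions and ranks of binding sites of the tagged protein at these genes, not effects on their expression.

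Insulators are DNA elements that, bound by proteins, separate chromatin domains and limit which enhancer acts on which promoter. In the fly, DNA-binding proteins such as BEAF-32 recognise short motifs and recruit cofactors without strong sequence preference of their own, above all Cp190 and Mod(mdg4). Interbands, the decondensed stripes of polytene chromosomes, hold many active promoters and are marked by Chro (Chromator), its partner Pzg (Z4) and the same insulator proteins.

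Of the 9 genes, 5 had a binding site at a start site of their own in the conservative list, the thresholded list of 3718 peaks called across both replicates: Cp190, Chro, BEAF-32, pzg and row. Under the same rule, a summit within 500 bp of a start site, 17.3% of all protein-coding genes had one. With mod(mdg4), which had a site deep inside the gene, 6 of 9 had a conservative peak in their window, beside 30.6% of all protein-coding genes. The same 6 had a thresholded peak in each replicate on its own, beside 22.5% of protein-coding genes. Ibf1, Ibf2 and insv had no peak in any of the 4 thresholded lists. Each of the 6 bound genes had exactly 1 conservative peak, as did 70.4% of the protein-coding genes with at least 1.

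The 50 bases on either side of the Cp190 summit are shown because they hold the highest A+T share of the 6 sites. For Chro, mod(mdg4) and pzg, whose windows overlap annotated untranslated sequence of the gene or a neighbour, 30 bases with the summit and the nearest match to a short word are shown. The centre of the gap between the start sites of Ibf1 and Ibf2, where no list has a peak, is given as a contrast. Sequences are from the RefSeq copy of Release 6 (dm6), 5′ to 3′. Capitals mark CGATA, the core of the BEAF-32 motif, or ATATTA, an A+T word picked after the data were seen, on either strand.
Cp190, chr3R:15275339-15275439, plus strand: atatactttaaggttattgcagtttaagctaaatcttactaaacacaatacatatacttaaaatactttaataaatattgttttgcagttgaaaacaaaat
Chro, chr3L:22878881-22878910, plus strand: gtattgcctgtCGATAgctttaaactaact
mod(mdg4), chr3R:21365406-21365435, plus strand: aacATATTActaaattatagcaaaatatgc
pzg, chr3L:21285900-21285929, plus strand: tttcaagtaaataattacgtTATCGtaatg
Ibf1-Ibf2, chr3R:9258682-9258782, plus strand: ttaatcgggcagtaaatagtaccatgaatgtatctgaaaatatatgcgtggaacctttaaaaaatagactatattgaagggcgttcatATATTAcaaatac

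The Cp190 window holds neither word, and 79.2% of its bases are A or T. The Chro stretch holds CGATA, centred 4 bp from the summit on the side of lower coordinates. The mod(mdg4) stretch holds the match to ATATTA nearest to its summit, 21 bp away on the same side. The pzg stretch holds CGATA on the minus strand, 18 bp from the summit on the other side. The Ibf1-Ibf2 stretch, with no peak, has an A+T share of 69.3% and a match to ATATTA.

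**Figure D1:**
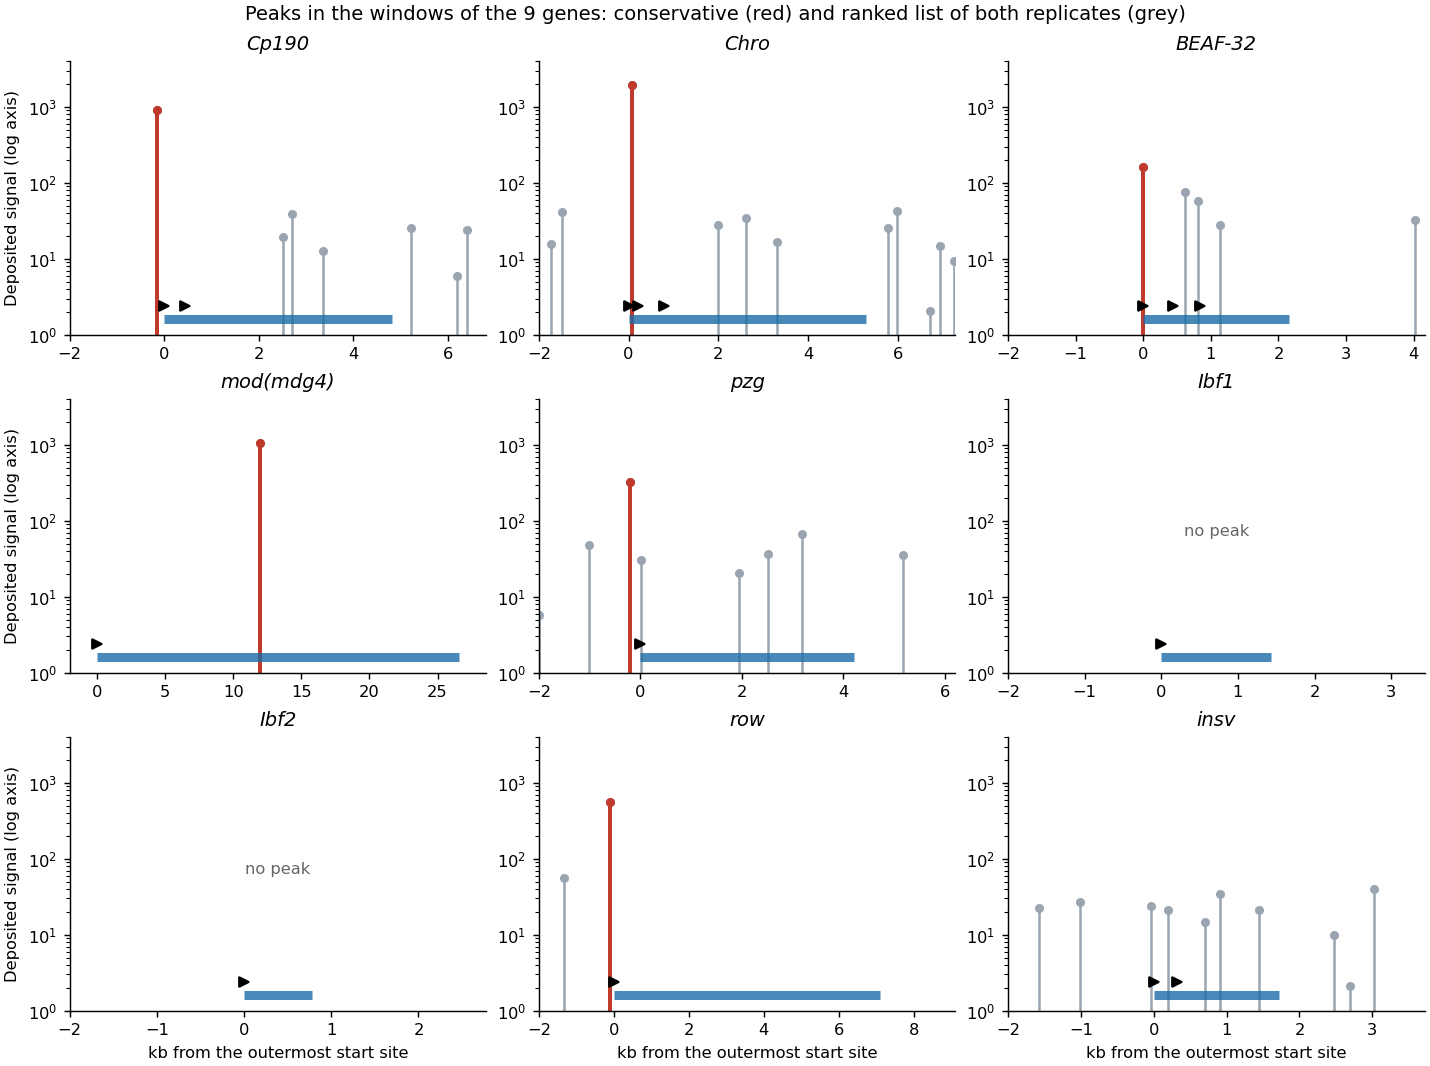
Peaks in the 9 gene windows, by distance in kb from each gene's outermost start site in the direction of transcription (x axis), against the deposited signal (y axis, log). Red stems are conservative peaks, grey stems are the other peaks of the ranked list of both replicates, blue bars are gene bodies and black triangles start sites. The conservative stems stand at the start site in 5 genes and 11969 bp inside mod(mdg4), and Ibf1 and Ibf2 have no stem.

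Among the cofactors, Cp190 encodes a zinc finger protein with a BTB domain that is found at most insulator classes. The gene (FBgn0000283) lies on the minus strand of 3R from 15270432 to 15275241. Its site, from 15275187 to 15275577, had a signal of 904 in the conservative list and stood at 3.36% from the top of its 3718 peaks. Signal is the authors' value on a scale that is not stated, so only its order within 1 list is read here. In replicate 1 the site had a signal of 440 and ranked 150th of 3442, and in replicate 2 it had 470 and ranked 102nd of 2624. In both libraries the site was thus within the highest 5% of the list. The summit lay 148 bp upstream of the outer Cp190 start site and 133 bp upstream of the start site of CG4338, which runs the other way. The site sits between these 2 divergent genes, and which is nearer differed between the replicates. The replicate 1 summit lay 149 bp from Cp190 and 132 bp from CG4338. The replicate 2 summit lay 132 bp from Cp190 and 149 bp from CG4338. The next strongest of the 7 ranked peaks in the Cp190 window had a signal of 38.4 and lay in a coding exon.

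mod(mdg4) encodes a large family of BTB proteins that share their N-terminal part and differ in their C-terminal exons, and 1 isoform is a component of the gypsy insulator. In the annotation, the gene (FBgn0002781) spans 26556 bp on the minus strand of 3R, from 21350846 to 21377401, with 22 transcripts and 1 start site. No conservative peak lay at that start site. The only conservative peak, from 21365234 to 21365646, had a signal of 1056 and ranked 92nd of 3718. Replicate 1 gave a signal of 561 and rank 100, and replicate 2 gave 501 and rank 92. The rank was therefore close to the same in each library, although the lists differ in length.

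The mod(mdg4) summit lay 11969 bp downstream of the start site, in an intron of each of the 18 transcripts that span it. The gene's C-terminal exons are made in part as separate precursor RNAs that are joined to the common exons by trans-splicing, and the annotation lists 23 such precursor genes, named pre-mod(mdg4). Of these, 10 start no more than 500 bp from the summit, 7 on the plus strand and 3 on the minus strand. The summit lay 56 bp downstream of a minus-strand start site of pre-mod(mdg4)-E. It lay 142 bp upstream of another minus-strand start site and 177 bp upstream of a plus-strand one. The summit was thus between precursor start sites of opposite strands, and also inside pre-mod(mdg4)-E by its outer start site. The other precursor start sites lay 2697 to 8143 bp away, and no conservative peak was nearer to them.

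In the 30.6 kb window of mod(mdg4), this peak was the only one of the ranked list of both replicates and the only ranked peak of replicate 1. Ranked lists hold peaks of any reproducibility, so weak peaks are frequent in them elsewhere. Replicate 2 had 4 ranked peaks there. One of these passed its threshold, from 21378570 to 21378979, with a signal of 123 and rank 920 of 2624. It lay 1374 bp upstream of the mod(mdg4) start site and 202 bp from the start site of tin, a homeobox gene of heart and muscle formation. No other list except the ranked list of the same replicate had a peak overlapping it, so it is a site of 1 library.

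Ibf1 and Ibf2 encode DNA-binding partners that recruit Cp190 to a class of insulator sites. The genes (FBgn0037670 and FBgn0037669) are divergent neighbours on 3R with 462 bp between their start sites, at 9258964 (plus strand) and 9258501 (minus strand), and their windows overlap. They therefore share 1 locus, although each is counted as a gene among the 9. No list, thresholded or ranked, had a summit in either window, and of all protein-coding genes 9.54% had none in any of the 4 ranked lists. The nearest peak of the ranked list of both replicates lay 4977 bp from the Ibf1 start site, near sage, with a signal of 23.9 and rank 56997 of 122959. The nearest conservative peak lay 13030 bp from Ibf1, near Vps15, with a signal of 91.4 and rank 2947. Unlike Cp190, whose divergent pair holds a strong peak, this divergent pair holds none, and the coverage behind that absence is unknown. These neighbours, and those of insv and row outside the 2 kb windows, were named after the values were seen.

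BEAF-32 encodes the boundary element-associated factor, which binds clusters of CGATA, mostly close to promoters. The gene (FBgn0015602) is on the plus strand of 2R from 14770469 to 14772630. Its conservative site, from 14770259 to 14770674, had the lowest rank of the 6, with a signal of 159 and rank 1676 of 3718. Replicate 1 gave 84.0 and rank 1760 of 3442, and replicate 2 gave 79.5 and rank 1619 of 2624. Both libraries thus placed the site below the middle of their thresholded lists by rank. The summit lay 2 bp upstream of the first start site, and start sites of the antisense gene asRNA:CR42254 lay 197 and 423 bp from it on the other strand. Downstream, the ranked list of both replicates had peaks of 75.2 and 57.6 near internal start sites. IDR, the irreproducible discovery rate, estimates how often peaks fail to recur between the 2 sets of peaks that a ranked list compares. In the lists of a single replicate it does not measure recurrence between replicates 1 and 2. In the list of both replicates, the −log10 IDR of the peaks of 75.2 and 57.6 was 1.45. This is under the value of 2 that the lowest thresholded score corresponds to.

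insv encodes Insensitive, a BEN domain protein that binds CCAATTGG and acts as a repressor and at boundary elements. The gene (FBgn0031434) is on the minus strand of 2L from 2575280 to 2576997. It had 10 peaks in the ranked list of both replicates, with signals from 2.15 to 40.2 and a median of 21.9. The strongest ranked 22967th of 122959, and it lay 2705 bp from the nearest insv start site, past the end of the gene. Replicates 1 and 2 had 7 and 10 ranked peaks there, at most 22.6 and 20.8 in signal. No insv peak passed a threshold, and the conservative peak nearest to its start sites was 83.9 kb away. The nearest thresholded peak in replicate 1 lay 8.46 kb away at Drp1, with a signal of 53.0.

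row encodes a zinc finger protein related to Woc, known from a complex with the heterochromatin protein HP1c at active promoters. The gene (FBgn0033998) is on the minus strand of 2R from 15206527 to 15213634. Its site, from 15213585 to 15213928, had a signal of 552 and ranked 293rd of 3718. Replicate 1 gave 256 and rank 359 of 3442, and replicate 2 gave 302 and rank 238 of 2624. The summit lay 93 bp upstream of the start site, and no other gene had a start site within 500 bp of it. A further conservative peak lay 4.12 kb upstream of row, beyond its 2 kb window and 136 bp from the start site of mRpL41, with a signal of 2897 and rank 10 of 3718. It is not counted for row.

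Of the interband proteins, Chro encodes a chromodomain protein that binds the histone kinase JIL-1 and Pzg. The gene (FBgn0044324) is on the minus strand of 3L from 22873702 to 22878984. Its site, from 22878704 to 22879097, was the strongest of the 6, with a signal of 1927 and rank 29 of 3718. Replicate 1 gave 1128 and rank 26 of 3442, and replicate 2 gave 809 and rank 34 of 2624. The site was within the highest 1.3% of the list in each library. The summit lay in the 5′ UTR, 86 bp downstream of the outer start site and 130 bp upstream of another. Start sites of Ssl1, a subunit of the repair and transcription factor TFIIH, lay 191 and 348 bp away on the other strand. The next of the 11 ranked peaks in the window had a signal of 43.0.

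pzg encodes a zinc finger protein of interbands that works with Chro and with the DREF promoter factor. The gene (FBgn0259785) is on the plus strand of 3L from 21286099 to 21290310. Its site, from 21285696 to 21286111, had a signal of 327 and rank 664 of 3718. Replicate 1 gave 141 and rank 900 of 3442, and replicate 2 gave 174 and rank 574 of 2624. The summit lay 195 bp upstream of pzg but only 58 bp downstream of a start site of CG12974, on the other strand. A second peak overlapped the first in the other series list, with its summit 18 bp downstream of the pzg start site. Its signal was 30.4 and its rank 3965 of 4098. The thresholded list of replicate 1 had it too, 14 bp upstream, at a signal of 25.4 and rank 3324 of 3442. Both ranks are near the bottom of their lists. The conservative list and the thresholded list of replicate 2 did not, although the ranked list of replicate 2 held a peak there, 4 bp downstream of the start site, with a signal of 27.0 and a −log10 IDR of 0.0685.

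**Figure D2:**
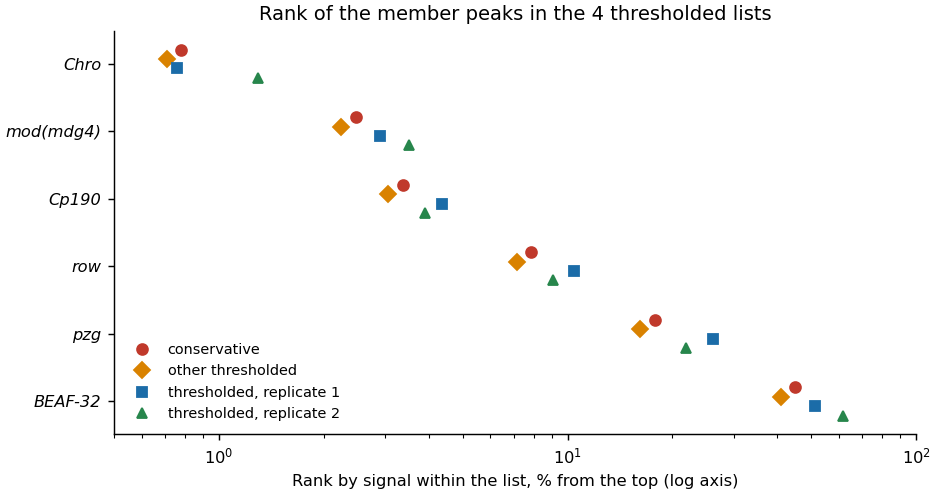
Rank of each gene's site within the 4 thresholded lists, as percent from the top of the list (x axis, log), for the 6 genes with a site (y axis). Each marker is 1 list. The order of the genes, from Chro at 0.780% to BEAF-32 at 45.1% in the conservative list, is the same in the list of each replicate.

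Expressed as percent from the top of each replicate's thresholded list, Chro stood at 1.03% ± 0.382 (SD, n = 2, as for the others). mod(mdg4) stood at 3.21% ± 0.425 and Cp190 at 4.12% ± 0.333. The row site stood at 9.75% ± 0.962, pzg at 24.0% ± 3.02 and BEAF-32 at 56.4% ± 7.47. The ranges of the replicates did not overlap between any of these neighbours in the order, the closest being mod(mdg4), at 2.91% and 3.51%, and Cp190, at 3.89% and 4.36%. With 1 group of 2 libraries, no test of such a difference was made. The replicates placed their summits 6 to 78 bp apart at the 6 sites, 6 bp at mod(mdg4) and 78 bp at BEAF-32. Over 2195 regions of the genome found in both replicates, the median was 21 bp, with quartiles of 8 and 43 bp.

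The highest 10% of the conservative list holds 371 peaks with a signal of 479 or more. Cp190, Chro, mod(mdg4) and row had such a peak in their window, 4 of 9 genes, beside 5.04% of all protein-coding genes. Of the 6 sites, 5 had start sites on both strands within 500 bp, counting the precursors in mod(mdg4) and the antisense gene at BEAF-32. Among the conservative peaks within 500 bp of any start site, 43.2% did. The exception was row.

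**Figure D3:**
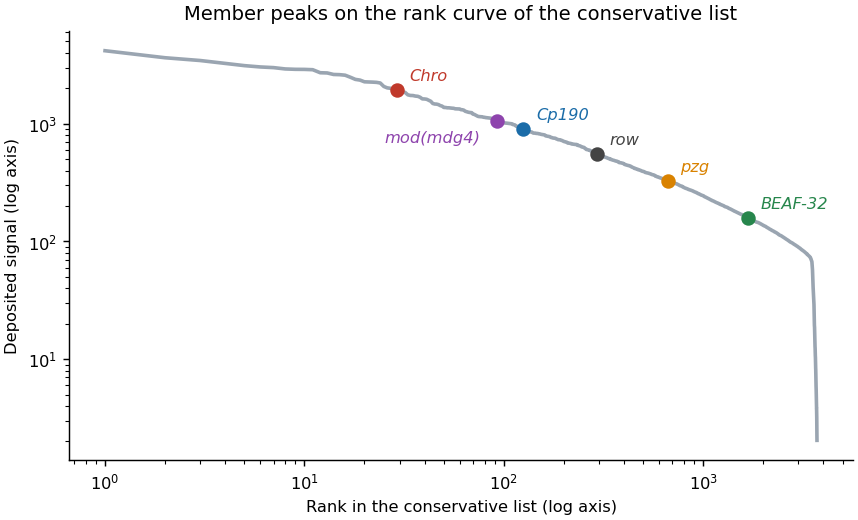
Signal (y axis, log) against rank (x axis, log) of the 3718 conservative peaks, drawn as a grey line, with the sites of 6 genes as points. Chro lies at rank 29 and BEAF-32 at rank 1676, and the other sites are spread between them.

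Below the thresholds the genes differed too. The ranked list of both replicates had a median of 0.977 peaks per kb of gene window over all protein-coding genes, with quartiles of 0.486 and 1.29. insv, with no thresholded peak, had the highest density of the 9 at 1.75 peaks per kb, above 96.2% of genes. Chro, pzg, BEAF-32 and Cp190 had 1.18, 0.974, 0.811 and 0.795 peaks per kb. row had 0.180 and mod(mdg4) 0.0327, while Ibf1 and Ibf2 had 0, as did 15.5% of genes. In this list, a strong conservative site occurred with a low density of ranked peaks at mod(mdg4) and row, and with a higher density at Chro. The single replicates did not order row and Chro alike. In replicate 1, row had 4 ranked peaks and Chro 5, or 0.360 and 0.539 per kb. In replicate 2, row had 12 and Chro 9, or 1.08 and 0.970 per kb. At mod(mdg4) the densities were 0.0327 and 0.131 per kb in replicates 1 and 2.

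**Figure D4:**
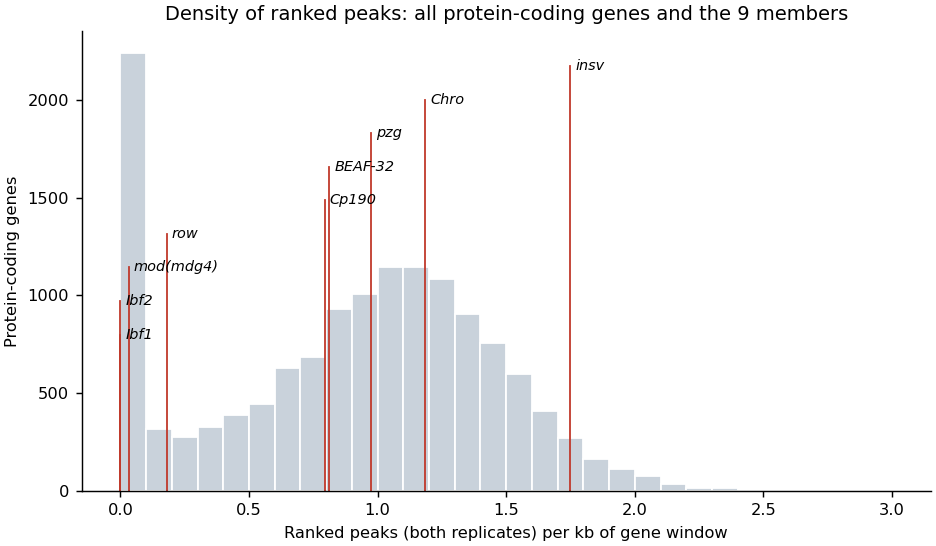
Number of protein-coding genes (y axis) by ranked peaks of both replicates per kb of gene window (x axis), as grey bars. Red lines mark the 9 genes, from 0 at Ibf1 and Ibf2 to 1.75 at insv.

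At the conservative summits the windows of 50 bp on either side were 59.4% (BEAF-32), 66.3% (Chro), 69.3% (pzg), 72.3% (mod(mdg4)), 74.3% (row) and 79.2% (Cp190) A+T. Over all 3681 conservative peaks on the assembled chromosomes the median was 67.3%, with quartiles of 58.4% and 73.3%. The window at Cp190 was above that of 93.5% of conservative peaks. In 113911 ranked peaks that overlap no thresholded peak the median was 51.5%, below each of the 6 sites. In the 250 bases upstream of the outermost start site, A+T share was 72.8% at Cp190, 72.4% at row, 70.0% at BEAF-32, 65.2% at Chro and 52.8% at pzg, which have a conservative promoter peak. It was 72.8% at Ibf2, 71.6% at Ibf1, 71.2% at mod(mdg4) and 67.6% at insv, which have none there, so the ranges overlapped. Over all protein-coding genes, the median share at the same place was 64.4% in those with a conservative promoter peak and 62.4% in the rest.

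**Figure D5:**
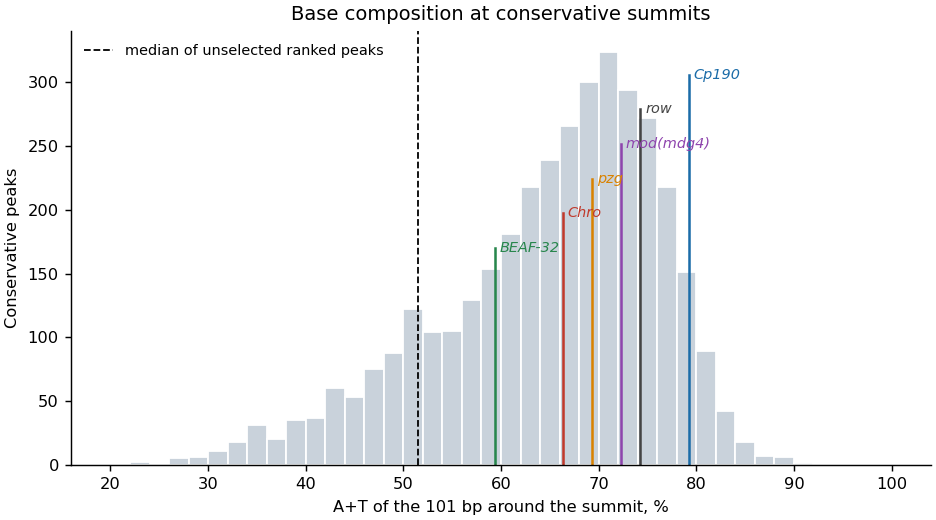
Number of conservative peaks (y axis) by A+T share within 50 bp of the summit in percent (x axis), as grey bars. Coloured lines mark the 6 sites, between 59.4% and 79.2%, and the dashed line is the 51.5% median of the ranked peaks outside the thresholded lists.

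Motifs of the proteins these genes encode, and of others named with them, were searched on both strands of the same windows. CGATA, the BEAF-32 core, matched at Chro and pzg, 2 of 6 sites, beside 15.6% of all conservative peaks and 9.98% of the ranked peaks outside the thresholded lists. Among peaks within 500 bp of any start site, as all 6 sites are, these shares were 20.6% and 12.7%. It did not match at the BEAF-32 site. CGATA was also counted in the 250 bases upstream of each gene's outermost start site. Of the genes with a conservative promoter peak, BEAF-32 and row had 2 matches each, Cp190 and pzg 1 each and Chro 0. Of those with none there, Ibf1 had 5, mod(mdg4) 3, Ibf2 2 and insv 1. Matches were thus found upstream of genes with and without a promoter peak. The counts over all protein-coding genes were not computed, so none of these can be called high or low. TATAAA, the TATA box, matched at row only, beside 21.2% of conservative peaks. The Insv motif CCAATTGG matched at none of the 6 sites and in 0.353% of conservative peaks. Also at 0 of 6 sites were TATCGATA (DREF) and ATCGAT, which is contained in it, with 1.71% and 5.08% of conservative peaks. The same held for CCAATAAG (ELBA), GAGAG (GAGA factor), GGTCACACT (M1BP) and the E-box CAGCTG, with 0.407%, 9.75%, 0.489% and 3.59%. ATATTA, picked after the data were seen, matched at Chro and mod(mdg4), beside 21.1% of conservative peaks and 4.60% of ranked peaks outside the thresholded lists.

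Of 26 other genes for insulator and interband proteins, 10 had a conservative promoter peak, or 38.5%, beside the 17.3% of all protein-coding genes. The strongest of these promoter peaks was at Trl, the gene of the GAGA factor, with a signal of 1135 and rank 80, below the promoter peak of Chro and above that of Cp190. Trl also had a stronger peak elsewhere in its window, with a signal of 2220, above the 1927 of Chro. SA, a cohesin subunit, had 417, M1BP, a factor of housekeeping promoters, had 312, and shep, an RNA-binding protein that acts on the gypsy insulator, had 232. JIL-1, the kinase bound by Chro, had 194, and Mes-4, a histone methyltransferase, had 171. Named after their values were seen, pita had a thresholded promoter peak in replicate 2 only, Top2 in replicate 1 only and wds in neither. Where the gene had to own the start site nearest to the summit, 7 of the 26 kept a conservative promoter peak. In the upper part of the conservative list by signal, 7 had one. In the window, 13 of the 26, or 50.0%, had a conservative peak, beside 30.6% of all protein-coding genes. The other 13 had none, beside 69.4% of all protein-coding genes, among them CTCF, su(Hw), Clamp, Elba1 and Elba2. Of these 5, chosen after their values were seen, su(Hw) had a thresholded promoter peak in each replicate, at signals of 40.8 and 71.1.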

How the data were processed

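Peaks of the tagged protein were measured in 2 libraries, biological replicates 1 and 2 per the labels. The authors deposited 8 peak lists on dm6: for each replicate a ranked and a thresholded list, and for the series 2 of each, of which 1 thresholded list is named conservative. Per the labels the assembly is dm6. The sources used here name no peak caller or aligner, and the scaling of the signal deposited by the authors is not stated. The deposited score of every thresholded peak is at least 830, an IDR of about 0.01, and the ranked lists hold the deposited −log10 IDR, capped at 5. The ranked list called that of both replicates here is the one with 82.5% of its source peaks in the replicates' lists.

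Gene models came from Ensembl release 115 and sequence from RefSeq Release 6, whose chromosome lengths contain every peak. Ranks, distances, counts, A+T shares and motif matches were computed in Python 3.11.15, the functions were tested on simulated data, and figures were drawn with matplotlib 3.10.9. Transposable elements and unplaced scaffolds were left out. No read counts were used, so depth is unknown, and no test was made. The members, lists and motifs were chosen with earlier results of these data known. Named genes are the members, genes whose start sites lie nearest or within 500 bp of the member summits, and the 6 strongest promoter peaks of the other insulator and interband genes; 4 of their 26 symbols were matched by a current name, 3 of them from a table written after the files were opened. Exceptions are named as such. Alternatives changed the promoter distance, the window, the list, the replicates, the motif window and the part of the list used.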

Additional observations from a re-analysis of the deposited data

How the results depend on the processing

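Of 43 recomputations of the main counts and values, 34 stayed within 1.5 times the count or 1 SD of the replicates. In the gene body alone, 2 members (Chro and mod(mdg4)) had a conservative peak and the same number had a thresholded peak in each replicate, with 2 peaks in all, because promoter summits lie just upstream. Where the gene had to own the nearest start site, 3 members (Chro, BEAF-32 and row) kept a promoter peak, since Cp190 and pzg lose theirs to CG4338 and CG12974. For Cp190 this holds for the conservative summit, while the replicate 2 summit lay nearer to Cp190. The median rank of the strongest peak, 5.62% from the top of the conservative list, was 1.63% in the gene body alone (2 members), 2.92% with 5 kb on either side, where row takes the peak at mRpL41, and 6.48% without replicate 1 and 7.39% without replicate 2. Within the ranked lists, the median rank of the sites was 0.204% from the top, against 6.94% in the thresholded lists, which are shorter. The 5 members with a promoter peak and the 6 with a window peak were the same genes in either replicate alone, in the other thresholded list and in the upper part of the conservative list. The last 2 are not independent checks, and some of the 34 are of this kind. The other list holds the same 6 peaks with the same signals, and the lowest of the 6 already ranked 1676th in the conservative list. Depth is unknown, so the absence of a peak at Ibf1, Ibf2 and insv cannot be given a detection limit. No paired analysis was possible because there is 1 group and no comparison between groups.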
